A study of Mus musculus with 45 samples.

Results

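The regions described here are promoter peaks of CIC that were called in all 3 genotypes examined, WT, 154Q and 154Q[V591A;S602D]. A WT peak was a member when any of its summits lay within 1 kb of a GENCODE transcript start. Its interval had to overlap by at least 1 bp both a 154Q peak, taken as the span of its summits, and a 154Q[V591A;S602D] peak. This rule was met by 318 of the 2578 WT promoter peaks on chromosomes 1 to 19, a background share of 12.3%, out of 4495 WT peaks on these chromosomes. The members were therefore selected on the peak calls themselves, so that peak strength, width and fold enrichment are given as descriptions without a test.

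CIC binding was measured by CUT&RUN, in which an antibody tethers a nuclease that releases DNA fragments around the bound protein, in cerebellar nuclei of 10-week-old C57BL/6 mice. WT animals (4 mice) were compared with Atxn1 154Q/2Q knock-in animals, which carry an expanded glutamine tract in ATXN1 (154Q, 4 mice), and with Atxn1 154Q[V591A;S602D]/2Q animals, which carry in addition 2 substitutions in the AXH domain through which ATXN1 binds CIC (3 mice, called the AXH mutant from here on). The control of all 3 comparisons was a set of 4 Engrailed1-Cre;Cicfl/fl animals (CIC KO), in which Cic is deleted in the Engrailed1 lineage, so that cells outside this lineage keep CIC. Replicates of a genotype were merged before peak calling, so each list is 1 pooled observation with no replicate error, and the 3 lists share their control. Of the WT and AXH mutant peaks on chromosomes 1 to 19, 131 of 4495 and 44 of 860 had over 50% of their bases in repeats, whereas the 154Q list is labelled as repeat-masked, and 0 members were among these peaks. Depth per library was not given in the lists, and the whole lists held 4596 (WT), 1695 (154Q) and 922 (the AXH mutant) peaks.

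CIC is an HMG-box transcriptional repressor that binds short octamers of DNA and recruits corepressors such as SIN3A and histone deacetylases. Signalling through receptor tyrosine kinases, RAS and ERK relieves its repression, and its best known targets are themselves outputs or brakes of that pathway, among them the PEA3 factors Etv1, Etv4 and Etv5 and the inhibitors of the Spry, Spred and Dusp families. ATXN1, the protein expanded in spinocerebellar ataxia type 1 (SCA1), forms a stable complex with CIC.

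The sequences below show the octamer in its setting at members with different positions relative to the gene. Each label names either the annotated place or the side of the start. By annotation the octamers at the Etv1 and Vgf summits lie in introns, at offsets of −51 and −98 bp from the nearest start. The octamers searched were TGAATGAA, TGAATGGA, TCAATGAA and TCAATGGA, on both strands. Each stretch is GRCm38 sequence from RefSeq in the direction of the nearest transcript, and the capitals mark the octamers, or overlapping octamers, in it. Where an untranslated exon was reached, a stretch of 30 bases or the part outside that exon is given.
Etv5, upstream of its start, chr16:22439844-22439944, minus strand: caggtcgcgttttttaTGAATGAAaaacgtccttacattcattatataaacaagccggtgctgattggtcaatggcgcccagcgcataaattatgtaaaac
Etv1, in an intron, chr12:38780732-38780832, plus strand: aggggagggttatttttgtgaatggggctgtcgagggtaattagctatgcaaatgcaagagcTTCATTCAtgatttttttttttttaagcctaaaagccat
Etv4, upstream of its start, chr11:101785372-101785536, minus strand: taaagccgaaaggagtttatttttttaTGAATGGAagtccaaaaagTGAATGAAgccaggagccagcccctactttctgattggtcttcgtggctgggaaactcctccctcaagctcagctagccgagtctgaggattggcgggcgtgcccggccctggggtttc
Etv4, in the 30 bases around its octamer nearest to the summit, chr11:101785356-101785385, minus strand: ggccctggggtTTCATTCAcaaaagtcaat
Spred2, in an intron, chr11:19925331-19925431, plus strand: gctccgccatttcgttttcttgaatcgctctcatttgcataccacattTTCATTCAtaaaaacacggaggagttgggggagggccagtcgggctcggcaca
Fos, in an intron, chr12:85474576-85474676, plus strand: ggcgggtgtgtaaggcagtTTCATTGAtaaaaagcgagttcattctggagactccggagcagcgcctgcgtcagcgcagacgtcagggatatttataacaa
Fos, upstream of its start, chr12:85473751-85473851, plus strand: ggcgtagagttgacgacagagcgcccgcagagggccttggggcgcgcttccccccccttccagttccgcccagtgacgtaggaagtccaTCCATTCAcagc
Kcnb2, in an intron, chr1:15288097-15288197, plus strand: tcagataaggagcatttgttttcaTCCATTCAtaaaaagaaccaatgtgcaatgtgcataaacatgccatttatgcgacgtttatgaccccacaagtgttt
Zdhhc5, upstream of its start, chr2:84715245-84715345, minus strand: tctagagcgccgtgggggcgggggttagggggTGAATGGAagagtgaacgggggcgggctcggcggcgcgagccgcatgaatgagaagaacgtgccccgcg
Maff, 30 bases, chr15:79347507-79347536, plus strand: ctgggtttttaTGAATGAAaggaatcctgt
Mafg, 30 bases, chr11:120633581-120633610, minus strand: tcgccgcttcaTGAATGGAacccacgtgac
Hsd11b1, 30 bases, chr1:193242493-193242522, minus strand: ttgcctcttacTCAATGAAatggagtaaac
Vgf, upstream, chr5:137030021-137030259, plus strand: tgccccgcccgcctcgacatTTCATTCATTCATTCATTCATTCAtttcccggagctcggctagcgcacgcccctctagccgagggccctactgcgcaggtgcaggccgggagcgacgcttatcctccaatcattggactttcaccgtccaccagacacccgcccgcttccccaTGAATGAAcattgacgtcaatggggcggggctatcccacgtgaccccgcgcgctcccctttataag
The Zdhhc5 member, at a gene of a protein palmitoyltransferase, also held a GC box in this window. The Vgf stretch held a tandem run in which overlapping octamers were counted separately, so that its 6 octamers correspond to fewer separate places.

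Peaks high in all 3 lists were led by the known CIC targets Etv5 and Spry4. When every member was given its worst rank over the 3 lists, by the −log10 q of the best overlapping peak, the lowest worst rank belonged to Etv5, followed by Spry4, Hsd17b12 and, with an equal worst rank of 22, Dusp4 and Rhebl1. At Etv5 the −log10 q was 488 in WT, 398 in 154Q and 180 in the AXH mutant, and the ranks were 3, 4 and 6. At Spry4, which encodes an inhibitor of ERK signalling, the −log10 q was 303 in WT, 674 in 154Q and 123 in the AXH mutant, with ranks 8, 2 and 9. These peaks stood near the top of each list, although a −log10 q grows with the number of fragments in a library and its size cannot be compared between lists. Ranks come from lists of unequal length, so a low position in the WT list always has a larger rank number than a low position in the others.

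Hsd17b12, which encodes an enzyme of fatty acid elongation, ranked 5, 3 and 12 in the WT, 154Q and AXH mutant lists. Dusp4, which encodes a phosphatase of ERK, ranked 19, 8 and 22. Neither peak held any of the 4 octamers within 50 bp of the WT summit, as their sequences show.
Hsd17b12, upstream of its start, chr2:94157984-94158084, minus strand: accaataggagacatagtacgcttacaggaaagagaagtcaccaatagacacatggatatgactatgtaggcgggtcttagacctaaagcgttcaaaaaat
Dusp4, upstream of its start, chr8:34807074-34807174, plus strand: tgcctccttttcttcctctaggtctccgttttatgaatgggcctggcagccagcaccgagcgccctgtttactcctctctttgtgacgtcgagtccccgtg
The Dusp4 peak held 2 octamers elsewhere in its interval, and the Hsd17b12 peak held 0.

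Rhebl1, which encodes a small GTPase, ranked 22, 13 and 21. The rest of the 20 members with the lowest worst rank included Etv1 and Etv4, the AP-1 gene Fos, the small MAF gene Mafg, the HMG-box repressor gene Hbp1, and Hsd11b1, which encodes a steroid reductase. Etv1 ranked 32, 11 and 34 in WT, 154Q and the AXH mutant, and Etv4 ranked 36, 9 and 65. Hbp1 ranked 14, 46 and 16, and Sec16a, a gene of endoplasmic reticulum exit sites, ranked 27, 66 and 20. Among the first 50 peaks of each whole list, members accounted for 30 in WT, 25 in 154Q and 28 in the AXH mutant.

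**Figure D1:**
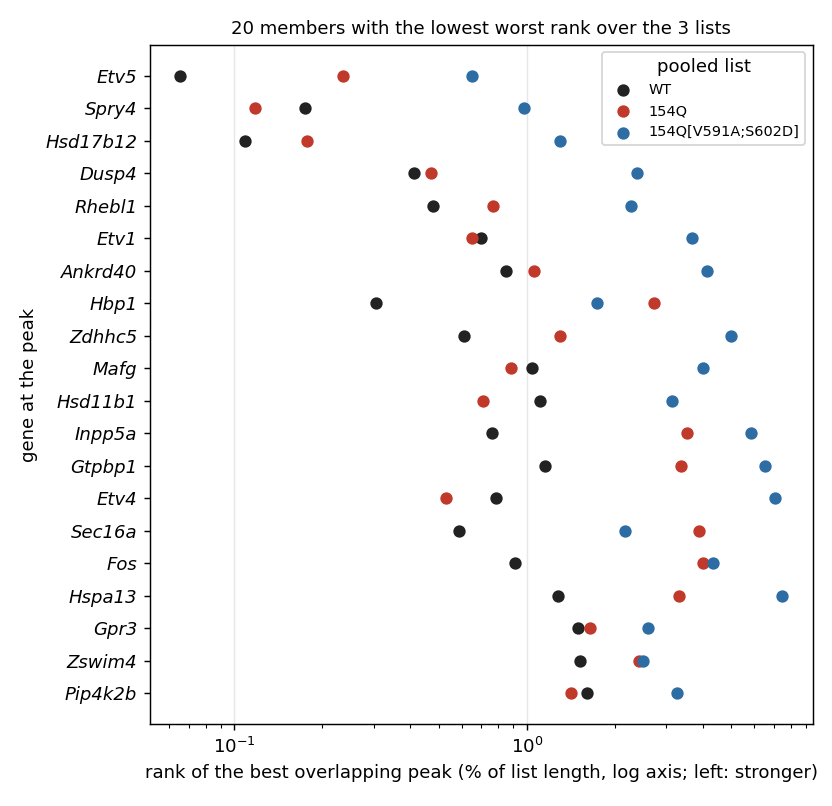
The rank of the best overlapping peak, as a percentage of the length of its list (x axis, log scale, stronger peaks to the left), is plotted for each of the 3 pooled lists at the 20 members with the lowest worst rank (y axis, gene at the peak). Points are single pooled values without error, and all lie within the first 7.48% of their list, the highest value being that of Hspa13 in the AXH mutant, which is the shortest list.

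Across the 318 members the median −log10 q was 17.8 in the WT list, 7.71 in the 154Q list and 4.60 in the AXH mutant list, values that carry the depth of each list. In WT promoter peaks that were called in 154Q and not in the AXH mutant the WT median was 7.63, and in those called in WT alone it was 3.33. The WT −log10 q of members ran from 1.37, just past the calling threshold, to 488, so the set joins very strong and marginal peaks. At 38 members the peak was in the first 10% of all 3 lists.

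Fold enrichment over the CIC KO control was given in 2 of the lists. Its median over members was 4.17 in WT and 3.19 in the AXH mutant, with ranges of 1.62 to 10.5 and 1.65 to 6.37, and it was higher in the AXH mutant than in WT at 50 members. Because fold enrichment and −log10 p together fix the fragment pileup and the control background it was scored against, both could be recovered at all 318 members. This background is the value that entered the score, not a raw count of control fragments at the summit. The median WT pileup was 64.5 fragments over a control background of 13.2 fragments. In the AXH mutant list the medians were 34 and 9.76 fragments.

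The control was not flat at these promoters. The lowest recovered background was the genome-wide value in both comparisons, so only a rise above it could appear. The background lay above the genome-wide value of 6.59 fragments at 309 members in the WT comparison, and above 5.28 fragments at 301 members in the AXH mutant comparison. In WT this was 97.2% of members, 92.2% of peaks shared with 154Q alone and 82.2% of peaks called in WT alone. The Etv5 summit combined the highest pileup of all members, 1193 fragments, with a control background of 201.2 fragments. The Etv4 summit had 338 fragments over 104, so that its fold enrichment of 3.22 was below the median of the members although its rank was 36. The part of this control signal in the membership was not tested.

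**Figure D2:**
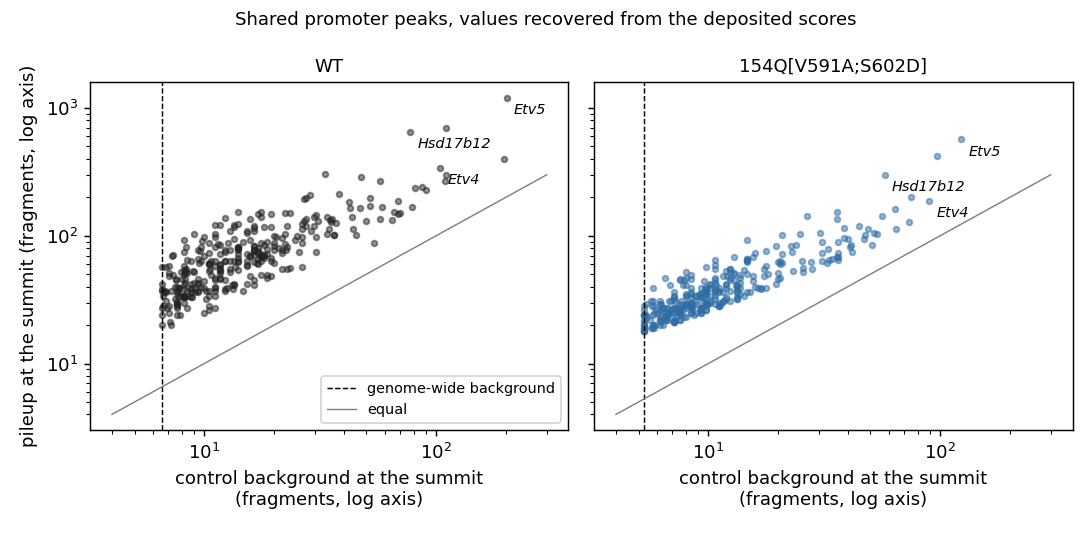
Fragment pileup (y axis) is plotted against control background (x axis), both in fragments on log axes, at the best summit of each of the 318 members in WT (left) and the AXH mutant (right, titled 154Q[V591A;S602D]). All points lie above the line of equality, and Etv5 lies at the upper right in both. Nearly all lie to the right of the dashed genome-wide background (6.59 and 5.28 fragments), which is also the lowest background found.

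At some members the rank number and the rank as a share of list length both differed widely between lists. Ung, which encodes uracil-DNA glycosylase, ranked 112 in WT (at 2.44% of the list) and 19 in the AXH mutant (2.06%), with 1354 in 154Q (79.9%). Cnot3, of the CCR4-NOT deadenylase complex, ranked 356 in WT (7.75%), 1676 in 154Q (98.9%) and 214 in the AXH mutant (23.2%). The clock gene Per2 ranked 45 in 154Q (2.65%) and 648 in the AXH mutant (70.3%), and Bicdl1 ranked 133 (7.85%) and 903 (97.9%). Rps26, a ribosomal protein gene, ranked 144 in WT (3.13%), 158 in 154Q (9.32%) and 791 in the AXH mutant (85.8%). One of the 2 Gpbp1l1 members, with a WT rank of 4074, overlapped the same 154Q and AXH mutant peaks as the stronger WT peak beside it.

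Vgf, which encodes a neuropeptide precursor, ranked 1797 in WT (39.1% of the list), 26 in 154Q (1.53%) and 69 in the AXH mutant (7.48%). Kcnb2, which encodes a potassium channel subunit, ranked 837 (18.2%), 33 (1.95%) and 123 (13.3%). Unc13a, which encodes a synaptic vesicle priming protein, ranked 50 in WT (1.09%) and 27 in 154Q (1.59%), with 427 in the AXH mutant (46.3%). With 1 pooled value a genotype, none of these differences could be set against the spread between animals.

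The members sat just upstream of transcript starts. The strongest WT summit lay upstream of the nearest start at 244 members (76.7%) and downstream at 74, at a median offset of −85 bp with quartiles at −162 and −10 bp. In the other WT promoter peaks 66.99% of summits lay upstream. By annotation, 49.7% of member summits fell between genes, 25.5% in introns, 17.9% in untranslated exons and 6.604% in exons of noncoding transcripts, and 1 member had its summit in a coding exon. A summit within 100 bp of a start was found at 145 members (45.6%) and at 41.2% of the other WT promoter peaks, a difference of 4.40 percentage points with a 95% interval of −1.36 to 10.3 (adjusted p = 0.522 by Fisher's exact test, two-sided). All Fisher's exact tests on features given here were two-sided, and p-values were adjusted together by the Benjamini-Hochberg method over 36 tests. Peaks were the units of these tests, not animals.

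**Figure D3:**
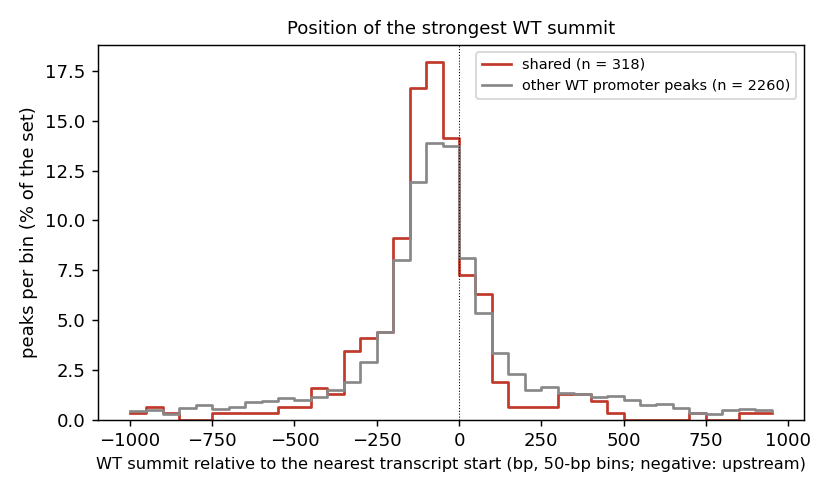
The share of peaks per 50-bp bin (y axis, % of the set) is plotted against the signed distance of the strongest WT summit from the nearest transcript start (x axis, bp, negative upstream) for the 318 members and the 2260 other WT promoter peaks. Both peak upstream of the start, with a member median of −85 bp, and 4 members over 1 kb from a start, which qualified through another summit, fall outside the plot.

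Members were broad and often had several summits. Their median width was 416.5 bp (134 to 2066 bp), against 267 bp for peaks shared with 154Q alone and 194 bp for peaks in WT alone. A single summit was called in 149 members, 2 in 101 and 3 or more in 68, up to 9. The best 154Q summit lay within 50 bp of the best WT summit at 209 members and the best AXH mutant summit at 169, with median distances of 25 and 38.5 bp. At 128 members all 3 summits lay within 50 bp. Spred2, an ERK inhibitor gene, had 2 members, a weaker one upstream of the start and the stronger one 939 bp into the gene. Fos, Etv1, Mnt, Gpbp1l1 and Ppp2r3d also carried more than 1 member.

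A protein-coding gene was present at 307 members, and 351 protein-coding genes had a shared promoter peak, which is 1.69% of the 20780 on chromosomes 1 to 19. Promoters with protein-coding starts on both strands made up 45 members (14.2%) and 12.3% of the other WT promoter peaks (adjusted p = 0.672, Fisher's exact test), with a difference of 1.89 points and an interval of −1.79 to 6.34. Among these were the pairs Ccdc47 and Ddx42, Tm2d2 and Adam9, and Lin52 and Aldh6a1. The 11 members with no protein-coding start included Mir22hg, the host transcript of a miRNA, at WT rank 23.

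The CIC octamer marked a small share of the members. It was present within 50 bp of the WT summit at 16 of 318 members (5.03%, 95% Wilson interval 3.12 to 8.02), beside 0.896% of windows of the same length around all protein-coding starts. In a window of the same length centred 500 bp away it was present at 3 members (0.943%). The difference of 4.09 percentage points came from 16 members with an octamer only at the summit and 3 with one only in the flank (p = 0.00443, exact McNemar test, two-sided). With the flank taken 1 kb away the difference was 1.89 points and did not pass the threshold (p = 0.327, exact McNemar test).

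The octamer was also more frequent in members than in the rest of the WT promoter peaks. It was present at 26 of the other 2260 peaks (1.15%), a difference of 3.88 points with an interval of 1.90 to 6.89 (adjusted p = 0.000194, Fisher's exact test). Against the peaks in WT alone, 1.03% of which held it, the difference was 4.004 points (adjusted p = 0.00019, Fisher's exact test). Against the peaks shared with 154Q alone, with 8 of 387 (2.07%), it was 2.96 points and did not pass after adjustment (adjusted p = 0.165, Fisher's exact test). Of the 121 peaks shared with the AXH mutant alone, 0 held it, with an upper Wilson bound of 3.08%. Octamer-bearing members were among the stronger ones, with a median WT rank of 69.5 against 375.5 for those without. Among WT promoter peaks at or above the median WT −log10 q of the members, 13 of 159 members and 0 of 98 other peaks held it, a difference of 8.18 points (adjusted p = 0.0797, Fisher's exact test). The 0 of 98 had an upper Wilson bound of 3.77%.

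**Figure D4:**
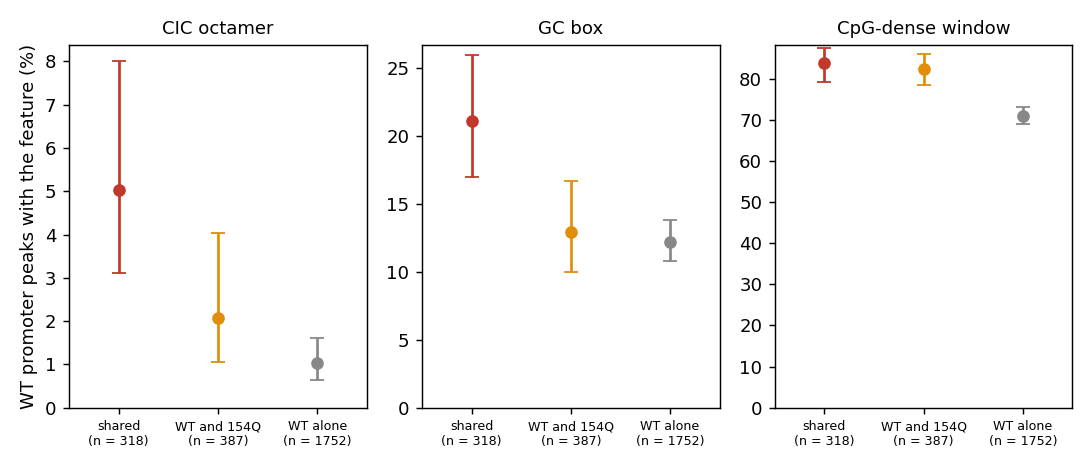
Shares of WT promoter peaks (y axes, %) with a CIC octamer or a GC box within 50 bp of the WT summit, or with a CpG-dense window, are plotted for the 318 members, the 387 peaks shared with 154Q alone and the 1752 peaks in WT alone, with 95% Wilson intervals as bars. The octamer share is 5.03% in members and 1.03% in WT alone, the 121 peaks shared with the AXH mutant alone are not plotted, and the GC box share of members (21.1%) stands above both other sets.

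The 16 members with an octamer at the WT summit were at Etv5, Zdhhc5, Etv1, Etv4, Fos (both of its members), Mafg, Unc13a, Hsd11b1, Maff, Spred2, Hexim2, Rhobtb2, Gpbp1l1, Kcnb2 and Vgf. Their windows held 17 sites, of which 10 lay within 25 bp of the summit and 10 on the strand of the nearest transcript. TGAATGAA was present at 7 of these members, TGAATGGA at 6, TCAATGAA at 4 and TCAATGGA at 0. In the flanks the counts were 2, 1, 0 and 0. The Spred2 octamer was centred 1.5 bp from the summit in the intron, and that of Maff, whose product is a small MAF factor like that of Mafg, covered the start itself.

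At the 154Q summits of the same regions, 22 members held an octamer, and at the AXH mutant summits 15 did, with 11 holding it at all 3 summits. An octamer stood at the 154Q summit and not at the WT summit at 7 members, among them Per2, Ube2n, a ubiquitin-conjugating enzyme gene, and Rbpj, the DNA-binding effector of Notch. The reverse was found at 1 member. Of the 20 members ranked highest in 154Q, 11 held it at that list's summit, compared with 4 of 20 in WT and 5 of 20 in the AXH mutant. These counts rest on overlapping sequence and were not tested against each other. Over the whole WT interval, 39 members (12.3%) held at least 1 octamer and 9 held 2 or more, which amounts to 0.367 octamers per kb against 0.131 per kb in the other WT promoter peaks. The 4 octamers of Etv4 and the 6 of Vgf were the highest counts.

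GC-rich features also differed. A GC box (GGGGCGGG, both strands) was present within 50 bp of the summit at 67 members (21.1%), at 12.5% of the other WT promoter peaks and in 9.88% of all protein-coding start windows. The difference from the other peaks was 8.59 points with an interval of 4.23 to 13.6 (adjusted p = 0.000435, Fisher's exact test), and that from the peaks shared with 154Q alone was 8.15 points (adjusted p = 0.0223, Fisher's exact test). A window reaching 250 bp to either side of the summit with at least 50% GC and a CpG observed to expected ratio of at least 0.6 surrounded 266 members (83.6%) and 73.5% of the other peaks, a difference of 10.1 points (adjusted p = 0.000435, Fisher's exact test). The median GC content of these windows was 62.1% in members and 60.3% in the other peaks.

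Neither difference passed the threshold among strong peaks, where fewer peaks were tested. At or above the median WT −log10 q of the members, a GC box was present at 17.0% of members and 16.3% of the other peaks (adjusted p = 1, Fisher's exact test). The difference of 0.655 points had an interval of −9.28 to 9.59, which still held the 8.59 points of all peaks. In that stratum CpG-dense windows made up 83.6% of members and 92.9% of the other peaks (adjusted p = 0.247, Fisher's exact test), so the direction turned. That difference was −9.21 points with an interval of −16.7 to −0.744. Against the peaks shared with 154Q alone, 82.4% of which lay in CpG-dense windows, the difference of 1.22 points had an interval of −4.43 to 6.72 (adjusted p = 0.854, Fisher's exact test).

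The motifs of other promoter factors did not pass the test in any of the 3 comparisons. The ETS motif CCGGAAGT was present at 8 members, among them Rpl41 and Phf23, that is 2.52% against 2.21% of the other WT promoter peaks and 2.98% of start windows. NRF1 (GCGCATGC) was present at 11 members, including Spry4 and Smarca4, that is 3.46% against 2.43% and 1.53%. YY1 (AAGATGGC) was present at 6 members, including Polr2a, that is 1.89% against 1.42% and 2.00%. CRE (TGACGTCA) was present at 5, including Maff and Vgf, that is 1.57% against 0.929% and 1.101%. NF-Y (CCAATCAG) was present at 7 members (2.20%), at 3.32% of the other WT promoter peaks, at 4.13% of peaks shared with 154Q alone and in 1.17% of start windows. At or above the median WT −log10 q of the members, its share was 1.26% in members and 7.14% in the other peaks (adjusted p = 0.247, Fisher's exact test). RFX (GTTGCCAT), the motif of a family to which the ATXN1 partner RFX1 belongs, was present at 0 of 318 members, with an upper Wilson bound of 1.19%, at 0.575% of the other peaks and in 0.42% of start windows. All these motifs were searched on both strands, and sites of different motifs were counted independently of any overlap. The summit lay in a repeat at 14 members (4.40%) and at 4.73% of the other peaks, and 0 members had over 50% masked bases.

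Among gene lists, known CIC targets had the highest share of shared promoter peaks. The lists were written with earlier results of these data known, so their counts are descriptions. Of 12 known CIC targets, 7 had a shared promoter peak (58.3%, beside 1.69% of all protein-coding genes), namely Etv5, Spry4, Dusp4, Etv1, Etv4, Spred2 and Spred1, and 8 had any WT promoter peak (66.7%, beside 12.2% of all protein-coding genes). Spry2, Spred3, Dusp6, Shc3 and Ccnd1 had no shared promoter peak. Spred1, an ERK inhibitor gene, was the weakest of the 7 in WT, with a −log10 q of 7.39. It ranked 1209 in WT (26.3% of the list), 113 in 154Q (6.67%) and 280 in the AXH mutant (30.4%). Its summit lay 905 bp from the nearest start.

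The wider ERK pathway and the immediate early genes were counted next. Of 56 genes of the ERK cascade and its receptors, 1 had a shared promoter peak (1.79%, close to the 1.69% of all protein-coding genes) and 12 had any WT promoter peak (21.4%, beside 12.2%). The 1 gene was Dusp5, an ERK phosphatase gene with a rank of 316 in WT, 69 in 154Q and 89 in the AXH mutant. Of 20 other ETS factors 0 had a shared promoter peak, which in a list this short is close to the background share, and 1 had any WT promoter peak (5%). Of 22 immediate early genes, 3 had a shared promoter peak (13.6%, beside 1.69%), Fos, Egr1 and Fosb, and 8 any WT promoter peak (36.4%, beside 12.2%). The Egr1 peak ranked 81 in WT, 241 in 154Q and 171 in the AXH mutant, and that of Fosb ranked 147, 431 and 160.

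CIC, ATXN1 and their partners made up a list of 24 genes, of which 5 (20.8%, beside 1.69% of all protein-coding genes) had a shared promoter peak and 9 (37.5%, beside 12.2%) any WT promoter peak. Sin3a, the corepressor scaffold, ranked 63 in WT, 214 in 154Q and 121 in the AXH mutant. Zbtb5, a zinc finger factor gene, ranked 83, 199 and 101. Smarca4, the ATPase of BAF remodellers, and the splicing factor gene U2af2 ranked 301 and 748 in WT. Cic itself carried a member in an intron, 418 bp downstream of the nearest start, with a fold enrichment of 2.04 in WT and 2.26 in the AXH mutant and ranks of 119, 38 and 103, where the control animals carry the floxed allele. Atxn1 and En1, the loci of the knock-in and of the Cre driver, had 0 promoter peaks in each of the 3 lists.

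The clock list had 4 of 21 genes with a shared promoter peak (19.05%, beside 1.69% of all protein-coding genes), Per2, Nr1d2, Per1 and Dbp, and 12 with any WT promoter peak (57.1%, beside 12.2%). Nr1d2, which encodes a nuclear receptor that represses clock genes, ranked 203, 210 and 87 in the 3 lists. Per1 ranked 436 in WT (9.49% of the list), 702 in 154Q (41.4%) and 875 in the AXH mutant (94.9%). Of the 16 zinc finger genes with a shared peak, out of 445 (3.596%, beside the same 1.69%), Zfp78 ranked highest in WT (66).

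The housekeeping and regulatory lists had shares of shared promoter peaks between 0 and 7.69%, beside 1.69% of all protein-coding genes. The highest of these was that of the translation initiation factors, with 4 of 52 genes. Shares above that of all protein-coding genes were also found for genes of deubiquitination and ubiquitin conjugation (6 of 143, 4.20%), mitochondrial ribosomal proteins (3 of 78, 3.85%), splicing factors (3 of 79, 3.797%), cytosolic ribosomal proteins (3 of 82, 3.66%), chromatin regulators (3 of 85, 3.53%), ataxia genes (1 of 29, 3.45%), chaperones (3 of 89, 3.37%) and Mediator and RNA polymerase II (2 of 77, 2.60%). Most of these counts are 3 genes or fewer. In each of these 9 lists the share with any WT promoter peak was also above the 12.2% of all protein-coding genes, from 20.7% of ataxia genes to 32.9% of splicing factors. The respiratory chain had 1 of 81 (1.23%), with any WT promoter peak at 24.7%. A count of 0 was found for 42 proteasome subunit genes, 63 cyclins and CDKs, 35 aminoacyl-tRNA synthetase genes and 23 cholesterol synthesis genes. Any WT promoter peak was present at 12 (28.6%), 14 (22.2%), 7 (20%) and 8 (34.8%) of these, beside 12.2% of all protein-coding genes. The single ataxia gene was Stub1, which encodes a ubiquitin ligase cochaperone. Within these lists, Hdac4 (WT rank 20), Rpl41 (26), Hnrnph1 (54), Usp36 (58) and Hspa13 (59) ranked highest in WT. Hdac4, which encodes a class IIa histone deacetylase, ranked 55 in 154Q and 250 in the AXH mutant.

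Cell type markers were counted because the tissue is a mixture in which granule neurons prevail. Of 11 granule cell markers 3 had a shared promoter peak (27.3%, beside 1.69% of all protein-coding genes) and 6 any WT promoter peak (54.5%, beside 12.2%). The shared peaks were at Etv1, Cbln3 and Zic2, and of these Etv1 is also a CIC target. Of the Purkinje, Bergmann glia and astrocyte, oligodendrocyte and microglia markers (11, 10, 10 and 9 genes), 0 had a shared (beside 1.69%) or any WT promoter peak (beside 12.2%). With lists this short, a count of 0 shared peaks is close to the background share. The count of 0 with any WT promoter peak was not tested against its background of 12.2%. Cbln3, which encodes a synapse organiser, ranked 995 in WT and 258 in 154Q. The lists hold pooled tissue, so a peak cannot be assigned to a cell type.

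**Figure D5:**
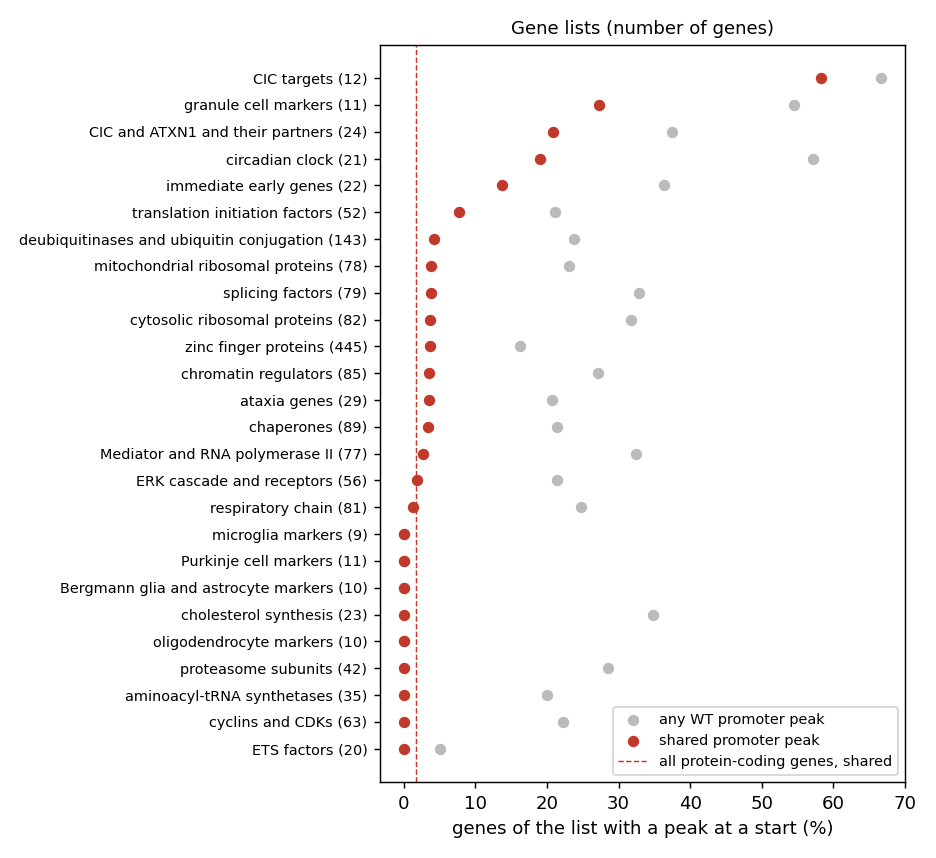
For each gene list (y axis, number of genes in brackets) the share of genes with a shared promoter peak (red) and with any WT promoter peak (grey) is plotted (x axis, %), and the dashed line marks the 1.69% of all protein-coding genes with a shared promoter peak. Known CIC targets lead with 58.3%, and the granule cell, CIC partner, clock and immediate early gene lists follow.

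At the limits of the rule, the members whose nearest summit, weaker summits included, lay farthest from a start were at Spred1, Spred2 and Mnt, at 905, 939 and 964 bp. The nearest peaks outside were at Zkscan17, Foxo3 and Midn, at 1031, 1084 and 1092 bp. The smallest overlaps with an AXH mutant interval were 3 bp at Smc3, 28 bp at Zfp420 and 29 bp at Dhx8, while Mrpl34, Hsp90ab1 and Lnpep missed it by 43, 149 and 195 bp. For the 154Q peaks the members nearest the edge were Zfp420, Dcaf17 and Ice1, with the summit 3, 5 and 12 bp inside. The nearest 154Q summits missed Vkorc1, Trim41 and Mlst8 by 34, 57 and 66 bp. These gaps run to summits because 154Q intervals are not given, so the 154Q peaks may reach further. The classes without 154Q may therefore hold peaks that a 154Q interval would overlap, which was not tested. By chromosome, members made up between 6.12% of the WT promoter peaks on chromosome 3 and 21.5% on chromosome 1, with the largest number, 44, on chromosome 7.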

How the data were processed

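CUT&RUN libraries for CIC, H3K27ac and IgG came from 15 mice (45 samples), and only the CIC peak lists were used here. Per the labels and the study's methods, the authors trimmed reads with Trimmomatic 0.36 and aligned them with Bowtie2 2.3.4.1 to mm10 (GRCm38). They kept only short fragments for CIC, so the peaks and pileups rest on this subset. They then merged the replicates of a genotype and called peaks with MACS3 against the merged CIC KO libraries at a q-value of 0.05. SAMtools 1.10 and bedtools 2.29.1 are named in the submitters' processing notes. For WT and for 154Q[V591A;S602D] (the AXH mutant), the deposited lists give a fold enrichment ratio at the summit, a −log10 p-value, a −log10 q-value and the summit offset. The deposited 154Q list gives 1-bp summits with a −log10 q-value, so that its peaks were taken as the span of their summits. The authors removed peaks with most of their length in repeats, which the WT and AXH mutant lists do not show in full. Merging weights each animal by its reads and leaves no replicate error, and depth is not stated in the lists.

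Lines were collapsed by peak number, ranks were taken over each whole list by −log10 q and also given as a share of list length, and coordinates are 1-based on GRCm38 with GENCODE M21 basic annotation. Pileup and background were solved from the fold enrichment, (pileup + 1)/(background + 1), and the −log10 p as a Poisson upper tail with a whole pileup, to within 0.02 of the deposited −log10 p. Motifs were searched within 50 bp of the WT summit with the highest −log10 q. Flanks lay 500 bp toward higher coordinates. Overlap of a feature with the classes was tested with Fisher's exact test or an exact McNemar test (SciPy 1.17.1), with 95% Wilson intervals for shares and Newcombe intervals for differences, which cover counting error over peaks only. The scripts were tested on simulated data. Named genes were the 20 members with the lowest worst rank, octamer members, listed genes by WT rank, members at the limits of the rule, those with the largest rank differences, and Cic, Atxn1 and En1. The members and lists were chosen with earlier results of these data known. The alternatives tried are given with their values below. H3K27ac and IgG libraries were not analysed here.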

Additional observations from a re-analysis of the deposited data

How the results depend on the processing

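The count of 318 shared promoter peaks stayed between 298 and 334 with promoter distances of 500 bp and 2 kb, protein-coding starts alone, all GENCODE transcripts (chosen after seeing the data), summits required inside the WT interval, and the repeat filter. It was 186 with q under 0.001 in all 3 lists and 189 with a reciprocal overlap of 50% with the AXH mutant interval. The octamer difference between summits and flanks kept its direction in every alternative and lost its call with the flank 1 kb away (1.89 points). A flank 500 bp away on the other side, chosen after seeing the data, gave 4.09 points. The octamer difference from the other WT promoter peaks lost its call among peaks at or above the members' median WT −log10 q (8.18 points), where fewer peaks were tested. In that stratum the GC box difference was 0.655 points, and the differences turned for ETS (−0.546 points), NRF1 (−0.937), CRE (−0.783), CpG-dense windows (−9.21), divergent promoters (−0.924), summits within 100 bp of a start (−4.88) and summits in a repeat (2.60). With a motif window of 100 bp that of RFX turned to 0.147 points. The cause was not tested. Of 31 alternative values of the tested differences, 19 kept direction and side of the threshold. Among strong peaks RFX was at 0 in both sets.

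No paired analysis was possible because the replicates of each genotype were merged before peak calling, and no animal was left out for the same reason. The 154Q list holds summits in place of intervals and is labelled as repeat-masked, and the part of that filter in list lengths and ranks was not tested. Leaving out WT and AXH mutant peaks with over 50% masked bases left the count at 318.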

Other observations

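The near match TGAATGGG was present at the WT summits of some members with none of the 4 octamers in the same window, such as Dusp4 and Gpr3, a gene of an orphan receptor. It was searched on both strands in the same windows, and its counts were chosen after the data were seen and carry no test. It was present within 50 bp of the WT summit at 7 of 318 members (2.20%), at 11 of 2260 other WT promoter peaks (0.487%), at 1 member in the flank window and in 0.225% of all protein-coding start windows. The members were at Spry4, Dusp4, Etv1, Pafah1b3, Gpr3, Cbarp and the long noncoding gene Gm49335.

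RefSeq promoters of 300 bases were matched by symbol for 284 of the 351 protein-coding genes at members (80.9%). In the 390 promoters of these genes the octamer share was 3.08%, against 3.69% of all 31396 RefSeq promoters on the same chromosomes. The GC box share was 44.9% against 16.7%. All RefSeq promoters include those without a CIC peak, and the other WT promoter peaks were not compared in this way.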
